A study of Mus musculus with 72 samples.

Results

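NANOG occupied 4786 promoter sites in mouse embryonic stem cells (ESCs) that carried no Klf4 or CTCF peak in WT cells. They were taken from 79921 merged NANOG sites, which were made by joining the NANOG peaks of 4 libraries wherever they shared 1 bp. A site was kept when it was called in at least 2 of the 4 libraries (61962 sites) and lay within 1000 bp of a protein-coding transcript start in GENCODE vM1 on mouse genome build mm9 (6718 sites). Of these promoter sites, 1932 were set aside because a WT library had a Klf4 peak (1142 sites), a CTCF peak (963 sites) or both (173 sites). The sites were thus chosen by NANOG, Klf4 and CTCF peak calls in these same libraries. The 4786 sites that remained were 7.72% of the NANOG sites called in 2 or more libraries, and 55244 sites farther than 1000 bp from any start served as the distal comparison.

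The peak lists came from chromatin immunoprecipitation sequencing (ChIP-seq) of WT cells (Hmgn1+/+n2+/+) and DKO cells (Hmgn1-/- n2-/-), all of strain C57BL/6. Each factor was mapped in 2 WT and 2 DKO libraries of ESCs, called WT 1, WT 2, DKO 1 and DKO 2 below, which the design text gives as biological replicates. Both alleles of both genes are lost in every cell of the DKO, not in ESCs alone, and the number of ESC lines behind each genotype was not given in the sources used here. The study asked whether loss of HMGN1 and HMGN2, nucleosome-binding proteins that compete with linker histone H1 and loosen chromatin, alters where transcription factors bind.

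NANOG is a homeodomain protein that holds ESCs in the pluripotent state together with SOX2, an HMG-box protein, and OCT4, a POU-domain protein encoded by Pou5f1. SOX2 and OCT4 often bind adjacent half-sites on the same stretch of DNA, mostly in enhancers. Promoters of housekeeping genes differ from enhancers in base composition, since many lie in CpG islands and hold GC boxes read by SP and KLF proteins and sites for NRF1, ETS and NFY factors.

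The sites are shown first by their DNA, because the sequence under the summit differed between sites called in every library and sites called only in DKO cells. These groups also differed in distance from the start and in GC content, as given below. Each window is 101 bp of the mm9 plus strand centred on the highest NANOG summit, lies outside annotated exons, and is written 5′ to 3′. Capitals mark the NANOG homeodomain core (CATTA), the SOX core (ACAAAG) or its variant (ACAATG), and the OCT octamer (ATGCAAAT), each on either strand, so that a capital run may be the reverse complement of the letters given here. The first windows come from sites that NANOG occupied in all 4 libraries, near the genes for the homeodomain factor Otx2, the chromatin remodeller Smarca2, the zinc transporter Slc39a14, the T-box factor Tbx3 and OCT4 itself.
Otx2, chr14:49282701-49282801: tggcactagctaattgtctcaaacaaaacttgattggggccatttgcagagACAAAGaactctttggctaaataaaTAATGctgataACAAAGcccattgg
Smarca2, chr19:26683107-26683207: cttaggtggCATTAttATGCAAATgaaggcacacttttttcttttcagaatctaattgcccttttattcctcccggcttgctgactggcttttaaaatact
Slc39a14, chr14:70751888-70751988: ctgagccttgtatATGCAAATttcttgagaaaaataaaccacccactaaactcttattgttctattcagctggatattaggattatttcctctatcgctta
Tbx3, chr5:120130077-120130177: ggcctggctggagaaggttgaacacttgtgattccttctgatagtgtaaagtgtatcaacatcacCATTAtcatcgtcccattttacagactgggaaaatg
Pou5f1, chr17:35644244-35644344: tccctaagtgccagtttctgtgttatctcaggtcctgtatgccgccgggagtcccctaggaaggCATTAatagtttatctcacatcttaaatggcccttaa
Their summits lay at -204, 1397, -706, -633 and -133 bp from the nearest start, in the order printed, with upstream negative. The Smarca2 summit exceeds 1000 bp because the edge of the site, not its summit, met the distance rule. These windows were picked as examples that hold motif letters. Lpar1 and Thap2, among the strongest sites, held none in theirs, and CATTA was present at 25.7% of all-library sites within 100 bp of the summit. All but Slc39a14 held the NANOG core letters, Otx2 also held the SOX core, and Smarca2 and Slc39a14 held the octamer. The next windows come from sites called in both libraries of 1 genotype and neither of the other: Cdk12 (a kinase of RNA polymerase II) and Tmem181b-ps in DKO cells, and Celf1 (an RNA-binding protein) in WT cells.
Cdk12, chr11:98063961-98064061: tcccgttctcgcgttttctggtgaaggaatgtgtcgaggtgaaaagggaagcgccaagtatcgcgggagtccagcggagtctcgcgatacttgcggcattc
Tmem181b-ps, chr17:6465953-6466053: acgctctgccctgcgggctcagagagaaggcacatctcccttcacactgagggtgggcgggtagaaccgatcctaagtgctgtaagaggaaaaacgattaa
Celf1, chr2:90779524-90779624: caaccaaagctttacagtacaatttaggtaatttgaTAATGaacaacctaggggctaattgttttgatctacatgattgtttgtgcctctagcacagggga
These summits lay at -362, 354 and -980 bp. The windows called only in DKO held none of the 4 motifs, and the Celf1 window held the NANOG core once, on the minus strand.

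NANOG itself was called at fewer of the promoter sites in WT than in DKO libraries. Of the 4786 sites, 2737 (57.2%) were called in WT 1, 3057 (63.9%) in WT 2, 4447 (92.9%) in DKO 1 and 4463 (93.3%) in DKO 2, so the genotypes did not overlap. The means were 60.5% ± 4.73 (SD, n = 2) in WT and 93.1% ± 0.236 (SD, n = 2) in DKO. At distal sites the shares were 81.3% and 82.2% in WT against 91.0% and 92.6% in DKO, a narrower gap. Because NANOG calls chose the sites, these shares describe them and were not tested.

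**Figure D1:**
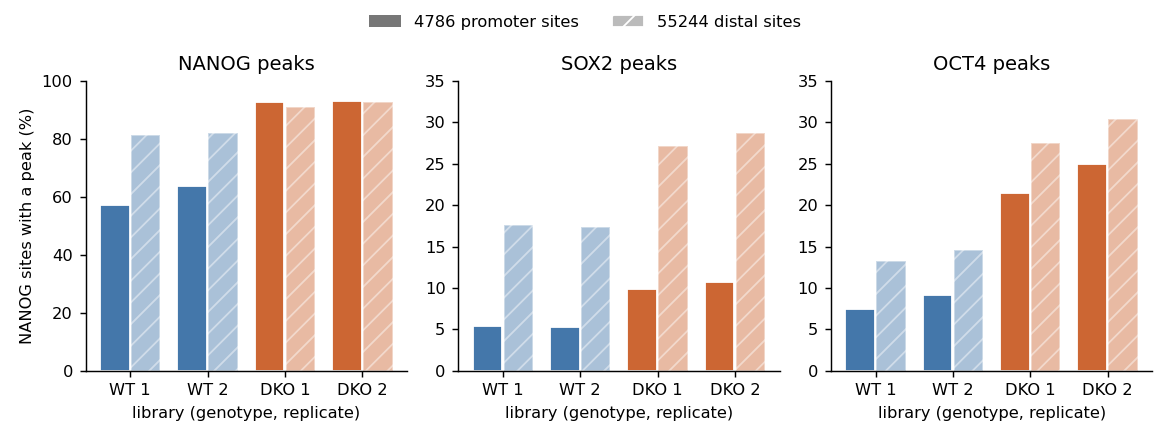
Share of NANOG sites with a NANOG, SOX2 or OCT4 peak in each library, in percent of sites; blue bars are WT and orange bars DKO libraries, solid bars the 4786 promoter sites and hatched bars the 55244 distal sites. NANOG was called at 57.2% and 63.9% of promoter sites in WT and at 92.9% and 93.3% in DKO, while SOX2 and OCT4 peaks were rarer at promoter than at distal sites in every library.

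By pattern over the libraries, 2100 promoter sites (43.9%) were called in all 4, 790 in both DKO libraries and 1 WT library, 142 in both WT libraries and 1 DKO library, and 322 in 1 library of each genotype. DKO-only sites, called in both DKO and neither WT library, numbered 1333 (27.9%), where 12.2% of all NANOG sites in 2 or more libraries had that pattern. WT-only sites, called in both WT and neither DKO library, numbered 99 (2.07%), where the background was 2.83%. Without DKO 1 the WT-only sites numbered 162 and without DKO 2 they numbered 178. A WT NANOG peak lay within 500 bp of 93 of the 1333 DKO-only sites (6.98%).

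At the limits of the rule, the 1754 sites called in exactly 2 libraries had a median highest −log10 q of 9.90 (quartiles 7.48 and 13.3), where q is the peak caller's adjusted p-value. The 2119 promoter sites called in 1 library, just outside the rule, had a median of 6.04 (quartiles 4.47 and 8.15). Of the sites called once, 161 and 305 were in WT 1 and WT 2, and 841 and 812 in DKO 1 and DKO 2. On the distance limit, the sites of Aurkc and Sox30 lay 999 bp from a start and those of Rnf157 and Lysmd3 lay 1001 bp away.

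The libraries were not equally deep. In reads recovered from the peak caller's own values, the lowest background under NANOG peaks (first percentile) was 1.63 and 1.77 reads in WT and 2.01 and 2.49 reads in DKO. The peak caller had scaled each NANOG read to a weight of 0.895 and 0.826 in WT and 0.989 and 0.799 in DKO. The numbers of NANOG peaks were 52307 and 53524 in WT and 62697 and 64486 in DKO. When the strongest 52307 peaks of each library were used, NANOG was called at 57.2% and 61.1% of promoter sites in WT and at 72.7% and 71.3% in DKO. At distal sites the shares were then 81.3% and 81.0% in WT against 80.9% and 81.0% in DKO. The DKO-only promoter sites fell in number to 577 (12.1%; background 5.81%), and the WT-only sites were 202 (4.22%; background 5.23%). Depth moved with genotype, and its part in the calls was not tested further.

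DKO-only calls sat among the weaker sites. The median of the mean −log10 q was 8.80 at DKO-only, 7.61 at WT-only and 19.3 at all-library promoter sites. When all NANOG sites were divided into 5 equal classes by their highest −log10 q, DKO-only sites made up 48.8% of the promoter sites and 29.0% of the distal sites in class 1, the weakest. In classes 2 to 4 the shares were 35.4% of promoter against 18.5% of distal sites, 14.3% against 6.14%, and 2.54% against 0.526%. In class 5 no promoter site was DKO-only. Within each of classes 1 to 4 the promoter share was the higher one.

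**Figure D2:**
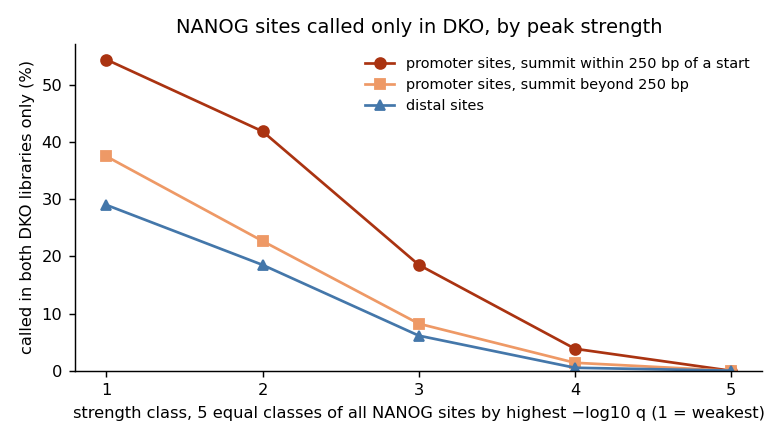
Share of NANOG sites called in both DKO libraries and neither WT library, in percent of sites, in 5 equal classes of all NANOG sites by highest −log10 q, from 1 (weakest) to 5; circles and squares are promoter sites with summits within and beyond 250 bp of a start, triangles distal sites. The share fell from 54.4% in class 1 to 3.85% in class 4 for promoter sites within 250 bp, and from 29.0% to 0.526% for distal sites.

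Every promoter peak of a library was also counted, whether or not it belonged to the 4786 sites. NANOG had 4053 and 4713 promoter peaks in WT and 7337 and 7373 in DKO, which is 1.68 times as many. These are largely the calls that chose the sites, so the NANOG numbers are a description and no test is given for them. The numbers of SOX2 and OCT4 promoter peaks, which took no part in the choice, were tested with limma over all 16 antibodies of the series. SOX2 had 385 and 382 in WT and 700 and 819 in DKO, 1.97 times as many (log2 difference 0.98, SE 0.11, limma adjusted p = 0.00664). OCT4 had 657 and 802 in WT and 2130 and 2612 in DKO, 3.25 times as many (log2 difference 1.70, SE 0.18, limma adjusted p = 0.00610). Across the series 68.8% of antibodies passed this test, so a call of this kind was common. With the same number of top peaks from each library, the differences were 0.17 for SOX2 and 0.13 for OCT4 (limma adjusted p = 0.0858 and 0.167), and neither call held.

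The share of NANOG peaks at promoters was 7.75% and 8.81% in WT and 11.7% and 11.4% in DKO, given without a test for the same reason. For OCT4 the share was 5.90% and 6.35% in WT and 7.97% and 8.46% in DKO, and the log2 promoter-to-distal ratio was higher by 0.46 in DKO (SE 0.07, limma adjusted p = 0.0246). For SOX2 the ratio was higher by 0.30 (SE 0.07, limma adjusted p = 0.0477), while 43.8% of all antibodies passed. The SOX2 call was lost with the replicate block (limma adjusted p = 0.0970), with peaks of −log10 q of at least 4 (0.0509) and with fold enrichment of at least 4 (0.0550). With the same number of top peaks from each library, the values were 0.14 for OCT4 and 0.17 for SOX2 (limma adjusted p = 0.175 and 0.128), and neither call held. Leaving out WT 1 or DKO 2 also ended the OCT4 call (limma adjusted p = 0.0570 and 0.0582), and leaving out WT 1, WT 2 or DKO 2 the SOX2 call (0.142, 0.139 and 0.0655).

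The promoter sites crowded close to the starts. The median distance of the summit from the nearest start was 157 bp, 59.2% of summits lay within 250 bp, and 63.4% lay upstream. The sites were 343 bp wide at the median (174 to 1605 bp). They lay within 1000 bp of the starts of 4718 of 22238 protein-coding genes (21.2%), 505 genes had 2 or more sites, and 497 sites lay near starts on both strands.

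Distance went with the pattern of NANOG calls. Among the 2832 sites within 250 bp, NANOG was called at 46.2% and 56.2% in WT against 93.7% and 93.5% in DKO, and 1015 (35.8%) were DKO-only. Among the 1954 sites beyond 250 bp, it was called at 73.1% and 75.0% in WT against 91.8% and 92.9% in DKO, and 318 (16.3%) were DKO-only. The median distance was 91 bp for DKO-only sites, 319.5 bp for sites called in all libraries and 434 bp for WT-only sites. Within the classes of strength, DKO-only shares within and beyond 250 bp were 54.4% and 37.5%, 41.8% and 22.7%, 18.5% and 8.23%, and 3.85% and 1.40% in classes 1 to 4. Sites near starts therefore had the larger DKO-only share in each of these classes, as the plot by peak strength shows.

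**Figure D3:**
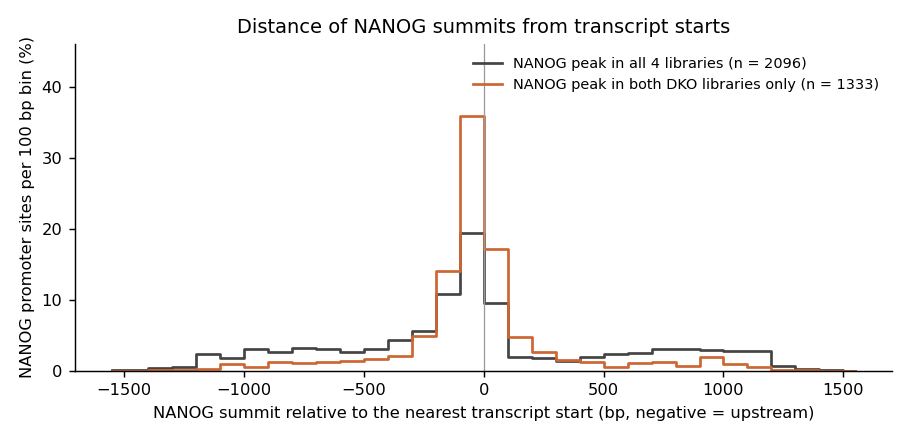
Position of the highest NANOG summit relative to the nearest transcript start, in bp with upstream negative, as percent of sites per 100 bp bin, for promoter sites called in all 4 libraries (dark line; 4 sites with summits farther out are not drawn) and the 1333 DKO-only sites (orange line). Both peak just upstream of the start, and DKO-only sites are the more concentrated, with median distances of 91 bp against 319.5 bp.

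SOX2 was called at few of the NANOG promoter sites, and at more of them in DKO. It was called at 259 (5.41%) and 255 (5.33%) sites in WT 1 and WT 2 and at 472 (9.86%) and 511 (10.7%) in DKO 1 and DKO 2, with no overlap between genotypes. At distal sites the shares were 17.6% and 17.4% in WT against 27.2% and 28.8% in DKO. In all, 184 promoter sites had SOX2 in all 4 libraries, 108 (2.26%) were SOX2 DKO-only against a background of 5.44%, 7 were SOX2 WT-only against 0.189%, and 4139 had none. SOX2 was rarer at promoter sites altogether, and the ratio of DKO to WT calls was 1.91 there and 1.60 at distal sites. Leaving out DKO 1 or DKO 2 gave 238 and 201 DKO-only sites, and leaving out WT 1, WT 2 or DKO 1 gave 17, 20 and 11 WT-only sites. With the strongest 10222 SOX2 peaks of each library, 32 sites were DKO-only and 26 WT-only (backgrounds 1.28% and 1.06%). SOX2 was then called at 257 and 255 promoter sites in WT and at 272 and 265 in DKO. The distal shares were then 17.4% in both WT libraries and 17.5% in both DKO libraries. The lowest background under SOX2 peaks was 1.499, 1.56, 1.74 and 6.24 reads in WT 1, WT 2, DKO 1 and DKO 2. The peak caller gave each DKO 2 read a weight of 0.328 and each read of the other libraries a weight of 1, so the depth it worked with in DKO 2 was lower than that value. The part of depth was not tested.

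SOX2 lay mostly where NANOG was strong and away from the start. Any SOX2 peak was present at 22.4% of sites beyond 250 bp and at 7.38% of those within it. Of the 184 sites with SOX2 in all libraries, 181 also had NANOG in all libraries, and none of the 99 NANOG WT-only sites and 40 of the 1333 NANOG DKO-only sites had a SOX2 peak in any library. Of the 108 SOX2 DKO-only sites, 96 had NANOG in all 4 libraries and 4 were NANOG DKO-only.

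The strongest SOX2 DKO-only sites were near Chchd2, Ctbp2 and Lrrc49. At Chchd2, a mitochondrial intermembrane-space protein, the SOX2 −log10 q was 47.6 in DKO 1 and 24.2 in DKO 2 with no WT peak. NANOG there was 36.0 and 57.7 in WT and 126 and 107 in DKO, and OCT4 was 59.7 and 90.0 in WT and 210.0 and 297 in DKO. At Ctbp2, a transcriptional corepressor, SOX2 was 26.6 and 41.4 in DKO, and NANOG was 131 and 167 in WT and 314 and 289 in DKO. At both sites NANOG was called in every library, and its −log10 q was higher in each DKO than in each WT library. Since −log10 q also grows with depth, this order need not hold for fold enrichment. The strongest SOX2 WT-only sites were weak: at Camk2d, a calcium/calmodulin-dependent kinase, SOX2 was 12.2 and 10.8 in WT, and at Gadd45g, a growth-arrest gene, 12.4 and 8.71.

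OCT4 was called at more of the promoter sites than SOX2, and again at more in DKO. It was called at 356 (7.44%) and 439 (9.17%) sites in WT 1 and WT 2 and at 1029 (21.5%) and 1195 (25%) in DKO 1 and DKO 2, with no overlap. At distal sites the shares were 13.2% and 14.6% against 27.5% and 30.4%. In all, 307 promoter sites had OCT4 in all 4 libraries, 442 (9.24%) were OCT4 DKO-only against a background of 9.86%, none was WT-only against 0.0323%, and 3461 had none. The ratio of DKO to WT calls was 2.80 at promoter sites and 2.08 at distal sites. Leaving out DKO 1 gave 717 DKO-only sites. Leaving out WT 1, WT 2 or DKO 1 gave 3, 2 and 1 WT-only sites. With the strongest 11140 OCT4 peaks of each library, 61 sites were DKO-only and 21 WT-only (backgrounds 1.49% and 0.688%). OCT4 was then called at 356 and 387 promoter sites in WT and at 419 and 424 in DKO. The distal shares were then 13.2% and 13.4% in WT and 14.5% and 14.6% in DKO. The lowest background under OCT4 peaks was 0.924 and 1.31 reads in WT and 1.03 and 1.43 reads in DKO, and the part of depth was not tested.

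In each library OCT4 was called at a smaller share of the sites near the start than of those away from it. It was called at 6.07% and 7.80% of sites within 250 bp and 9.42% and 11.2% of those beyond in WT, and at 20.6% and 24.8% within and 22.8% and 25.3% beyond in DKO. OCT4 in all 4 libraries was at 5.08% of sites within and 8.34% of those beyond. Any OCT4 peak was present at 27.5% of sites within 250 bp and at 28.0% of those beyond, and OCT4 DKO-only sites were 9.82% and 8.39%. These differences by distance were not tested. Of the 442 OCT4 DKO-only sites, 243 had NANOG in all 4 libraries and 94 were NANOG DKO-only too. Neither factor was called in any library at 3175 promoter sites (66.3%) and 52.8% of distal sites. Both were present at 361 promoter sites (7.54%) and 20.1% of distal sites, and OCT4 without SOX2 at 20.1% of promoter and 12.8% of distal sites.

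The strongest OCT4 DKO-only sites bordered OCT4 peaks that WT cells also had. At Zfp658, a zinc finger gene, OCT4 −log10 q was 393 in DKO 1 and 544 in DKO 2, and WT OCT4 peaks of 118 and 151 lay 69 and 37 bp outside the NANOG site. At Aurkc, the meiotic Aurora kinase, it was 250.3 and 366 in DKO, with WT peaks of 70.1 and 91.6 at 106 and 154 bp. At Zscan10, an ESC zinc finger factor that cooperates with SOX2 and OCT4, it was 74.4 and 120 (119.6 before rounding) in DKO, with WT peaks of 17.5 and 25.6 at 130 bp. The neighbouring Zscan10 site at 490 bp carried the same OCT4 values in DKO, and OCT4 was called there in all 4 libraries. At Kdm3b (a histone demethylase), OCT4 was 19.2 in DKO 1 and 2441 in DKO 2. WT OCT4 peaks of 675 and 904, both above the DKO 1 value, lay 273 and 201 bp outside that site. Cidea (a lipid-droplet protein) had WT OCT4 peaks of 20.3 and 29.7 at 259 and 203 bp. Over all 442 OCT4 DKO-only sites, 12 (2.71%) had a WT OCT4 peak within 500 bp, so most were unlike these 5. When a call required the peak summit inside the site, 408 sites were OCT4 DKO-only.

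The strongest sites with peaks of all 3 factors included Otx2, a histone gene pair and Tbx3. At Otx2, a head and eye homeobox gene, NANOG −log10 q was 543 and 565 in WT and 766 and 662 in DKO. SOX2 there was 177 and 196 in WT and 350 and 398 in DKO, and OCT4 33.0 and 44.9 in WT and 96.5 and 105 in DKO. All 3 factors were higher in each DKO than in each WT library, by −log10 q and by fold enrichment. The −log10 q of a peak grows with depth as well as with enrichment, so the order of the genotypes can differ between these measures. At the bidirectional Hist1h2an and Hist1h2bp promoter, NANOG was 540 (539.7 before rounding) and 474 in WT and 755 and 631 in DKO, SOX2 180 (179.9) and 219 in WT and 337 and 324 in DKO, and OCT4 87.9 and 91.7 in WT and 167 and 191 in DKO. At Tbx3, NANOG was 405 and 339 in WT and 446 and 415 in DKO, but its fold enrichment overlapped (63.7 and 55.7 in WT, 60.1 and 56.6 in DKO), and SOX2 was 55.9 and 56.8 in WT and 159 and 144 in DKO. OCT4 at Tbx3 was 99.9 and 203 in WT and 330 (330.2) and 401 in DKO. At Slc39a14, the octamer-bearing window above, NANOG was 405 and 408 in WT and 423 and 389 in DKO, and the genotypes overlapped. Its NANOG fold enrichment was lower in DKO without overlap, at 67.2 and 67.7 in WT and 42.3 and 39.8 in DKO, and so was that of SOX2, at 24.1 and 36.2 in WT and 19.2 and 19.6 in DKO. OCT4 −log10 q at Slc39a14 was 77.2 and 135 in WT and 172 and 250.02 in DKO, without overlap.

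The other sites among the strongest 8 were near Lpar1 (a lysophosphatidic acid receptor), Plekhf2, Utrn (utrophin), Vmn2r12 (a vomeronasal receptor), Hesx1 (a pituitary homeobox repressor) and Thap2. NANOG ranged from 295 at Hesx1 in WT 2 to 575 at Hesx1 in DKO 1. At Plekhf2 and Hesx1, OCT4 was called only in DKO, at 16.7 and 24.8 and at 16.8 and 25.5.

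The strongest sites with NANOG in 1 genotype only were weaker. Tfip11, a spliceosome disassembly factor, had −log10 q of 46.9 in DKO 1 and 31.1 in DKO 2, and Tspyl1, a nucleosome assembly protein relative, 44.2 and 31.6. Cdk12 had 26.6 and 35.5, with WT peaks of 5.22 and 6.85 at 497 and 489 bp, and Phf3, an RNA polymerase II-binding protein, 40.9 and 23.1 with WT peaks of 52.1 and 35.3 at 130 and 275 bp. Tmem181b-ps, printed above, had 40.7 and 28.4 in DKO, and no WT NANOG peak within 500 bp. WT-only sites were weaker again: Sap30l, a Sin3 corepressor subunit, had 22.9 and 27.7 in WT, Celf1 17.5 and 9.84, Krt2 13.7 and 14.8, and Eif4h 14.7 and 12.6.

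Where a factor was called in all 4 libraries, its fold enrichment over background was compared with limma over every such site of that factor, each factor's peaks being merged into its own sites. For SOX2, 2304 of 7694 sites were higher in DKO at adjusted p under 0.05 (29.9%) and 312 lower (4.06%), with a median log2 difference of 0.35. Of the 184 sites at NANOG promoter sites, 53 were higher (28.8%) and 6 lower, with a median of 0.37. For OCT4, 8138 of 9434 sites were higher (86.3%) and 36 lower (0.382%), with a median of 0.93. Of the 316 OCT4 sites at NANOG promoter sites, 275 were higher (87.0%) and 1 lower, with a median of 0.88. Both DKO values were above both WT values at 109 of the 184 SOX2 sites and 294 of the 316 OCT4 sites, against 55.7% and 91.2% of all sites. The shares at promoter sites were thus close to the background. When each library was centred on its own median, which sets the common shift to about 0 by construction, 15 SOX2 sites were higher and 26 lower (median -0.03), and 49 OCT4 sites higher and 62 lower (median -0.09). Without DKO 2, 26 of the 184 SOX2 sites were higher. NANOG fold enrichment at its 2100 all-library promoter sites had a median log2 difference of 0.03 (distal 0.02), given without a test.

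The letters under the summits differed between patterns. In windows reaching 100 bp to either side of the summit, on both strands, the NANOG core CATTA was present at 25.7% of promoter sites called in all 4 libraries, 11.9% of DKO-only and 26.3% of WT-only sites. Distal NANOG sites had it at 38.3%, and windows at all protein-coding starts at 12.9%. CATTA holds mostly A and T, and median GC content was 51.2%, 60.2% and 45.8% at all-library, DKO-only and distal sites. The motif shares were not corrected for base composition, so they show no excess of the motif over it. The SOX core ACAAAG was present at 24.7%, 11.9% and 34.1% of all-library, DKO-only and distal sites and 10.5% of starts. DKO-only sites were thus close to starts in general for both motifs. Distance differed between the patterns too, with 76.1% of DKO-only and 46.1% of all-library sites within 250 bp of a start. Over all promoter sites, CATTA was present at 12.7% within 250 bp and 29.2% beyond, and the SOX core at 12.2% and 27.1%. The part of distance in these shares was not tested. The octamer ATGCAAAT was present at 3.38% of all-library and 1.65% of DKO-only promoter sites, 5.22% of distal sites and 0.781% of starts, and at 10.7% of promoter sites with OCT4 in all 4 libraries.

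**Figure D4:**
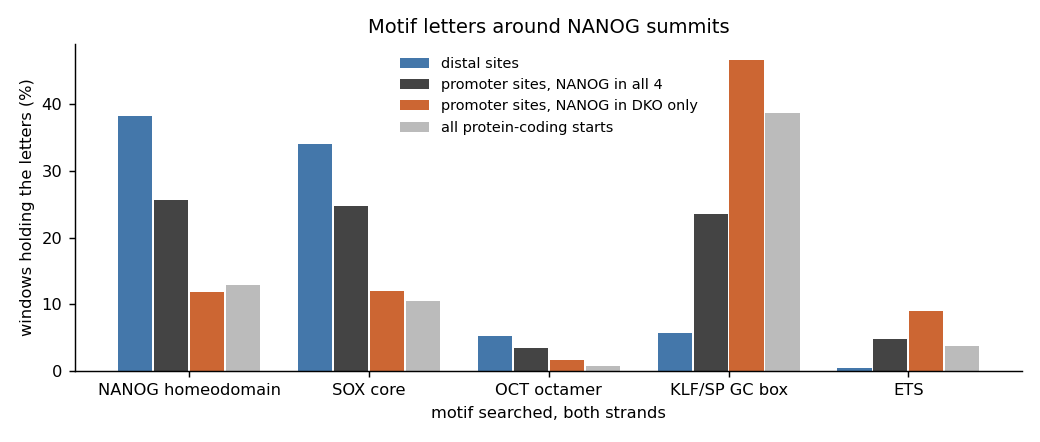
Share of windows, 100 bp to either side of the summit or start, holding the letters of each motif on either strand, in percent, for distal NANOG sites, promoter sites with NANOG in all 4 libraries, DKO-only promoter sites, and all protein-coding starts. The NANOG core stood at 38.3%, 25.7%, 11.9% and 12.9%, and the GC box at 5.71%, 23.5%, 46.7% and 38.6%.

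The GC box, ETS and NFY motifs were more frequent at DKO-only than at all-library sites. Near the start the gap was narrower for the GC box and ETS and turned for NFY. The GC box GGGCGG, read by SP and KLF proteins, was present at 46.7% of DKO-only sites, 23.5% of all-library sites, 5.71% of distal sites and 38.6% of starts. Sites with a WT Klf4 peak had been removed, but 365 of the promoter sites (7.63%) had a Klf4 peak in a DKO library, 101 of them in both. The ETS motif CCGGAAGT was present at 9.002% of DKO-only sites, 4.71% of all-library sites and 3.77% of starts, and the NFY motif CCAAT at 33.3%, 31.0% and 24.6%. Within 250 bp of a start, the shares at DKO-only and all-library sites were 52.3% and 35.8% for the GC box, 10.8% and 8.98% for ETS, and 34.4% and 35.1% for NFY, whose order was reversed.

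Base composition followed the same division. Median GC content was 60.2% at DKO-only, 51.2% at all-library and 52.7% at WT-only promoter sites, 45.8% at distal sites and 59.2% at starts. A CpG observed-to-expected ratio of 0.6 or more, the value usual for CpG islands, was found at 69.8% of DKO-only, 37.0% of all-library and 2.95% of distal sites. Within 250 bp of a start it was found at 81.2% of DKO-only against 63.7% of all-library sites, and beyond at 33.6% against 14.1%. In strength class 3, CATTA was present at 15.1% of DKO-only and 22.0% of all-library promoter sites, and the GC box at 47.9% and 27.6%.

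The share of genes with a NANOG promoter site, 21.2% over all genes, varied between the gene lists. Sites with a WT Klf4 or CTCF peak are not counted in it. With those sites included it was 28.8% over all genes. For core pluripotency factors it was then 40 of 55 (72.7%), Nanog, Prdm14 and Zfp42 among the genes added. For mitochondrial ribosomal proteins it was then 49 of 77 (63.6%), and for replication and repair genes 60 of 95 (63.2%). Without them, 26 of 55 core pluripotency genes had a site (47.3%). Among mitochondrial ribosomal proteins 40 of 77 did (51.9%), among DNA replication and repair genes 46 of 95 (48.4%), and among respiratory chain and ATP synthase genes 41 of 93 (44.1%). Splicing factors had sites at 25 of 59 genes (42.4%), RNA polymerase, general transcription factor and Mediator genes at 42 of 102 (41.2%), chromatin remodellers and deacetylase complexes at 16 of 40, proteasome subunits at 20 of 50, cell cycle genes at 17 of 44 (38.6%), translation factors and tRNA synthetases at 38 of 100 (38%) and Polycomb and Trithorax genes at 13 of 37 (35.1%). Zinc finger proteins (113 of 421, 26.8%) and early lineage specifiers (11 of 48, 22.9%) were nearer to the background, and replication-dependent histones were below it (10 of 67, 14.9%). Genes with ribosomal protein names had sites at 35 of 148 (23.6%), but this list was made by a name pattern that also takes in kinases and pseudogenes, so the share is not that of ribosomal protein genes. The lists are described by counts and were not tested.

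**Figure D5:**
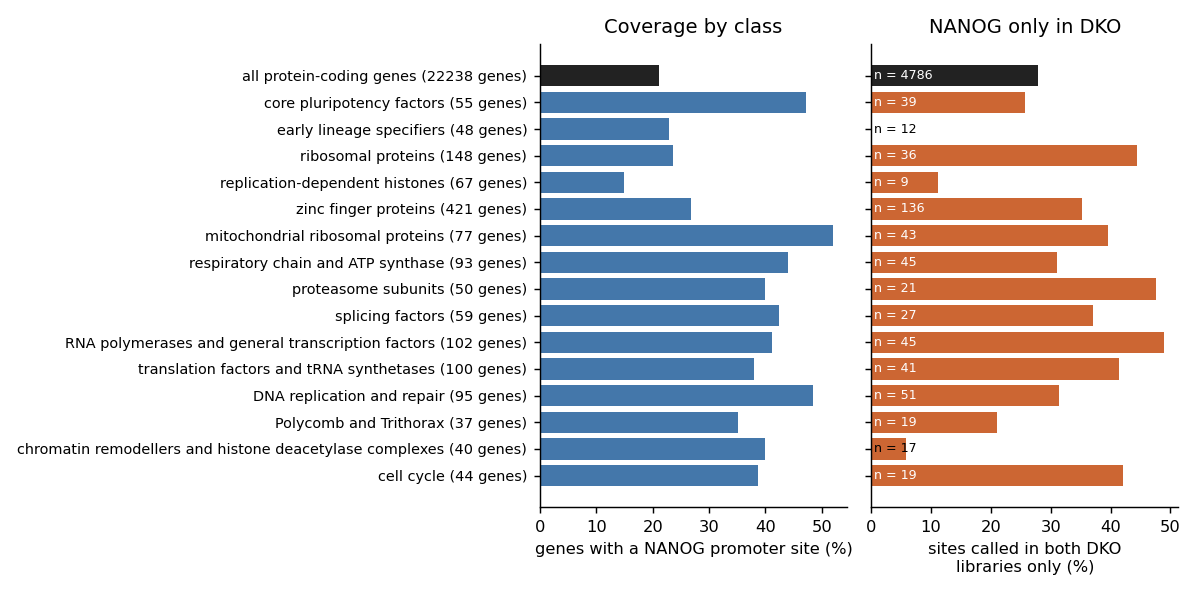
Left, share of genes of each class with a NANOG promoter site, in percent, with the number of genes in brackets; right, share of the class's sites that were DKO-only, in percent, with the number of sites in the bars. The black bars are all protein-coding genes, at 21.2% and 27.9%. Sites with a WT Klf4 or CTCF peak are not counted.

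The classes differed in how their sites were called. DKO-only sites made up 48.9% of the 45 sites of polymerase and general transcription genes, 47.6% of the 21 proteasome sites, 44.4% of the 36 sites of the ribosomal name list, 42.1% of the 19 cell cycle sites and 41.5% of the 41 translation sites, against 27.9% of all promoter sites. They made up 25.6% of the 39 pluripotency sites, 21.1% of the 19 Polycomb and Trithorax sites and 5.88% of the 17 remodeller sites. None of the 12 sites of lineage specifiers was DKO-only, and 8 were called in all 4 libraries. OCT4 was called in some library at 46.7% of the respiratory chain sites, 41.0% of the pluripotency sites and 17.1% of the translation sites, against 27.7% of all, and SOX2 at 28.2% of the pluripotency and 0% of the proteasome sites, against 13.5%.

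Among the pluripotency genes, Esrrb, an orphan nuclear receptor of naive ESCs, had all 3 factors in every library. NANOG −log10 q there was 120 (120.2) and 101 in WT and 139 and 171 in DKO, SOX2 19.3 and 23.02 in WT and 38.4 and 56.2 in DKO, and OCT4 60.1 and 83.3 in WT and 167 and 228 in DKO. The stronger site of Dppa5a, an ESC RNA-binding protein, was 140 (139.6) and 137 in WT and 216 and 190 (190.5) in DKO for NANOG. At both genes each DKO −log10 q exceeded each WT value for every factor, and so did the fold enrichment, except for NANOG at Esrrb, where it overlapped (28.03 and 23.8 in WT, 24.2 and 28.7 in DKO). At Sox2 itself, NANOG was 27.1 and 39.9 in WT and 90.9 and 108 in DKO, and SOX2 was called only in DKO, at 10.04 and 9.76. At Pou5f1, the site at -133 bp had NANOG at 38.2 and 53.3 in WT and 46.3 and 74.3 in DKO, which overlapped, with no SOX2 or OCT4 peak. A further Pou5f1 site at -60 bp was DKO-only, at 12.1 and 7.43. The Pou5f1 site at -939 bp had NANOG at 39.4 and 52.1 in WT and 30.6 and 47.8 in DKO. OCT4 was called at that site in WT 2 (7.25) and DKO 2 (15.2).

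The DKO-only sites of this list were weak, with no value above 14.9. At Nr0b1, a repressor of the nuclear receptor family, NANOG was 7.94 and 14.9 in DKO, at Lin28a, the let-7 inhibitor, 5.73 in both DKO libraries, and at Etv5, an ETS factor downstream of FGF signalling, 8.53 and 7.44 at the site near the start. OCT4 at that Etv5 site was nonetheless called in every library, at 41.2 and 74.9 in WT and 138 and 189 in DKO. Dppa2, a chromatin protein of ESCs, had NANOG at 29.8 and 35.9 in WT and 68.1 and 60.2 in DKO at its start, and SOX2 only in DKO, at 19.3 and 18.3.

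Developmental genes held by NANOG in all libraries included Pax6 and Neurog1. At the stronger site of Pax6, a neural and eye factor, NANOG was 149 and 161 in WT and 306 and 276 in DKO. SOX2 at Pax6 was 4.95 and 13.9 in WT and 39.4 and 41.9 in DKO. At Neurog1, a proneural bHLH gene, NANOG was 74.2 and 84.4 in WT and 87.0 and 85.7 in DKO, while OCT4 was 220 (219.97) and 299.7 in WT and 638 and 992 in DKO. The NANOG fold enrichment at Neurog1 was lower in DKO, at 20.4 and 21.1 in WT and 16.8 and 16.5 in DKO, while that of OCT4 was higher, at 61.1 and 66.6 in WT and 146 and 179.9 in DKO.

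Among chromatin genes, Smarca2 had NANOG at 153 and 139 in WT and 248 and 280 (280.4) in DKO, with SOX2 and OCT4 in every library. Cbx7, a Polycomb subunit of ESCs, had 3 sites. The strongest, at -929 bp, had NANOG between 98.9 and 125 in every library, with overlap, and OCT4 only in DKO, at 39.7 and 43.4. The Cbx7 site at 24 bp had NANOG between 17.1 and 25.4 and the site at 558 bp had no NANOG peak in WT 1. Jarid2, a cofactor of Polycomb repressive complex, had a DKO-only site at 13.3 and 12.4, where OCT4 was DKO-only too, at 20.5 and 18.2. The Jarid2 site at 40 bp had NANOG in all 4 libraries and that at -710 bp was DKO-only, both without an OCT4 peak.

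Among the named cell cycle genes, a few sites were picked out after their values were seen because the genotypes did not overlap. Such an order was common. By NANOG fold enrichment, both DKO values lay above both WT values at 33.7% of the 2100 all-library promoter sites and below at 28.5%. The values below are −log10 q of NANOG calls, which chose the sites, and were not tested. At Rb1, the retinoblastoma gene, NANOG was 30.9 and 28.9 in WT and 8.63 and 10.9 in DKO. At E2f2, a cell cycle transcription factor, it was 29.7 and 27.3 in WT and 7.05 and 14.4 in DKO, and at Cdk4, the G1 kinase, 109 and 95.3 in WT and 74.6 and 70.4 in DKO. At Mdm2, the p53 ubiquitin ligase, the order was opposite, at 7.76 and 7.10 in WT and 31.2 and 24.99 in DKO. None of these sites had an OCT4 peak, and of the 4 genes Cdk4 alone had SOX2, in 1 library of each genotype.

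The labelled cell type was checked on marker promoters. A NANOG peak was found at the promoters of 9 of 12 ESC markers in every library, 1 of 7 fibroblast markers, 0, 0, 1 and 1 of 6 B cell markers in WT 1, WT 2, DKO 1 and DKO 2, and all 4 neural markers. It was found at 0 of 4 trophectoderm markers in every library, and at 0, 0, 1 and 1 of 4 primitive endoderm markers. The deleted genes could not be checked from these lists: Hmgn1 held no NANOG, SOX2 or OCT4 peak in any library, and Hmgn2 held a single NANOG peak, in WT 2. Sites lay on 20 chromosomes, which are the autosomes and X, and none lay on Y.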

How the data were processed

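The series held 64 deposited peak lists (16 antibodies, WT and DKO, 2 libraries each; 8 of the lists were of Klf4 and CTCF), of which the NANOG, SOX2, OCT4, Klf4 and CTCF lists of ESCs chose or described the sites. Input libraries were not analysed here. According to the submitters' processing notes and methods, the authors demultiplexed reads with bcl2fastq 1.8.4, trimmed them with cutadapt 1.16, aligned them to mm9 with BWA 07.17, marked duplicates, removed blacklisted regions and called peaks in each library with MACS2 2.1.1.20160309. As deposited, each peak carried a score, its fold enrichment (a ratio over local background), −log10 p, −log10 q and summit. Read counts were not used here, so depth was read only from steps in the deposited −log10 p and fold values, and binomial intervals were not computed.

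Peaks were merged at 1 bp overlap, and a factor was called at a site where 1 of its peaks overlapped it by 1 bp. Members and gene lists were chosen with earlier results of these data known. Sites were named by the nearest protein-coding start: the 8 strongest by mean NANOG −log10 q, the 5 strongest WT-only and DKO-only of each factor, up to 10 with all 3 factors, the sites nearest the 1000 bp limit, and up to 6 examples per gene list. Gene lists were described by counts. Motif letters were searched in mm9 sequence within 100 bp of the summit, and the windows printed lie outside annotated exons.

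Log2 numbers of promoter peaks, the promoter-to-distal ratio and log2 fold enrichment at sites called in all 4 libraries were compared with limma 3.58.1 (R 4.3.3), without a replicate block, with Benjamini-Hochberg adjustment over the 16 antibodies or over all sites of the factor, at an adjusted p of 0.05. NANOG was in the same fit, but its calls chose the sites, so its values are described without a test. An exact permutation test of 2 against 2 libraries cannot give a p below 0.333. The design text calls the libraries biological replicates, and p-values measure the spread between them. For ESCs the labels list a single input and a single paired-end input per genotype. The 2 libraries of a genotype may thus share a control, in which case their spread is understated. Differences between the inputs cannot be told apart from genotype. Scripts were tested on simulated data and used Python 3.11.15, numpy 2.4.6, pandas 2.3.3, scipy 1.17.1 and matplotlib 3.10.9. Alternatives were −log10 q or fold enrichment of at least 4, promoters of 500 or 2000 bp, 3 libraries, equal numbers of top peaks, a replicate block, centred or −log10 p values, and leaving out each library. The top-peak form of the peak number tests, the crossed block and calls within 500 bp were added after seeing the data. Replicate numbers carried no stated pairing.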

Additional observations from a re-analysis of the deposited data

Results flagged for a closer look

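In the comparison of peak numbers over all 16 antibodies, the log2 change from WT to DKO was larger at promoters than at distal regions by 0.46 for OCT4 and by 0.30 for SOX2. The SOX2 call was lost with the replicate block (limma adjusted p = 0.0970) and with −log10 q or fold enrichment of at least 4 (limma adjusted p = 0.0509 and 0.0550). For NANOG the difference was 0.54, which is a description, since NANOG calls chose the sites. With the same number of top peaks from each library, neither the OCT4 nor the SOX2 difference passed the threshold.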

How the results depend on the processing

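Over 19 results and 150 alternatives, 104 kept their direction and call or count, 28 counts moved by over 1.5 times and 18 fitted differences lost their call; causes were not tested. NANOG differences are among them and are given as values only, since NANOG calls chose the sites. No difference in peak number changed sign. With the same number of top peaks from each library, chosen after seeing the data for the tests, log2 differences in promoter peak number were 0.29 (NANOG), 0.17 (SOX2) and 0.13 (OCT4), and promoter minus distal differences 0.32, 0.17 and 0.14, with no call for SOX2 or OCT4. WT-only and DKO-only sites were then 202 and 577 (NANOG), 26 and 32 (SOX2), and 21 and 61 (OCT4). The SOX2 promoter minus distal difference lost its call with the replicate block (0.30, limma adjusted p = 0.0970), with −log10 q of at least 4 (0.29) and with fold enrichment of at least 4 (0.26). Calling in 3 libraries left 3032 sites, and promoters of 500 bp gave 64 NANOG WT-only sites. Sites with higher fold enrichment in DKO numbered 821 (SOX2, 1009 lower) and 1502 (OCT4, 1885 lower) after centring, which sets the medians near 0 by construction, with medians of -0.04 and -0.03 in place of 0.35 and 0.93, and 3534 for SOX2 by −log10 p.

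Without 1 library, log2 differences ranged from 0.64 to 0.86 (NANOG), 0.87 to 1.09 (SOX2) and 1.55 to 1.85 (OCT4) for promoter peaks, and from 0.44 to 0.64, 0.22 to 0.37 and 0.40 to 0.51 for promoter minus distal. NANOG promoter sites ranged from 3294 to 4577, NANOG WT-only from 99 to 178, SOX2 WT-only from 10 to 20 and DKO-only from 145 to 238, OCT4 WT-only from 0 to 3 and DKO-only from 483 to 717, and SOX2 sites with higher enrichment from 1522 to 1975.

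Same-numbered libraries did not deviate together (r = -0.13 and -0.41 over 16 antibodies), so numbers were not taken as pairs. The replicate block called 10 antibodies for promoter peak number (11 without it) and 7 for promoter minus distal (7 without it). A crossed pairing, added after seeing the data, called 11 and 1. Library read totals were not used here, and unequal depth limits every comparison of weak peaks.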

Other observations

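The same DNA was looked up in the peak lists of the other cell types, which took no part in choosing the sites. In mouse embryonic fibroblasts (MEFs), H3K27ac, a histone mark of active promoters and enhancers, covered 64.4% and 64.1% of the NANOG promoter sites in WT and 63.6% and 63.7% in DKO, against 46.2% and 45.8% (WT) and 45.3% and 45.5% (DKO) of windows at all protein-coding starts. By NANOG pattern in ESCs, H3K27ac in WT 1 of MEFs covered 74.9% of DKO-only, 55.9% of all-library and 52.5% of WT-only sites. Brd3, a reader of acetylated histones, covered 51.3% and 51.1% of the sites in WT MEFs and 22.7% and 28.9% in DKO MEFs. In resting B cells, IKAROS peaks lay at 14.7% and 18.8% of the sites in WT and at 9.21% and 8.78% in DKO, and ETS1 peaks at 9.36% and 9.69% in WT and 2.17% and 1.98% in DKO. Over windows at all protein-coding starts the shares were likewise lower in DKO, going from 33.8% and 33.1% in WT to 13.3% and 17.6% in DKO for Brd3, from 11.3% and 13.7% to 7.10% and 6.73% for IKAROS, and from 5.34% and 5.52% to 1.30% and 1.21% for ETS1. These shares were not tested.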
